A study of Homo sapiens with 6 samples.

Results

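The genes described here are 8 secreted cytokines of the IL1, IL6 and colony-stimulating groups, IL1A, IL1B, IL6, IL11, LIF, CSF2, CSF3 and IL32, out of 60589 genes in the expression table. They were taken by symbol, and each matched 1 row. They had been picked with their TPM (transcript abundance scaled for transcript length and to a fixed library total) in siMAD2L1 against siControl in view, so their levels and differences between these groups are given as a description, with no test. The cells were SNU449, a line from a human hepatocellular carcinoma, grown in serum-containing medium and collected on day 3. One group received an siRNA against MAD2L1 (siMAD2L1, n = 3 libraries), a spindle checkpoint gene, and the other a control siRNA (siControl, n = 3 libraries). The question was what the loss of MAD2L1 does in these liver cancer cells. The labels give neither the sequence and number of siRNAs nor what the replicate numbers stand for, so any p-value measures the spread between these libraries, which may be technical.

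Of the 8 cytokine genes, 7 measured more in every siMAD2L1 library than in any siControl library, the exception being the nearly silent IL1A; this was so for 11.3% of all 14790 tested genes, and nothing is read from the count, since the genes were picked on this contrast. The largest differences were those of CSF3 at 3.40-fold, IL1B at 3.21-fold and IL6 at 2.47-fold, all ratios of mean TPM. LIF, CSF2 and IL11 stood between 1.72-fold and 1.85-fold, and IL32, the most abundant of them, at 1.34-fold. In the same cells the genes for the fibrinogen chains, which hepatocytes make in response to IL6, were lower in siMAD2L1. The acute-phase gene SERPINA3 and the NF-kB cofactor gene BCL3 were also lower. CEBPB, which IL6 and IL1 induce, and CFB, complement factor B, were higher. SOCS3, a feedback inhibitor that IL6 signalling induces, was lower. The calls of SOCS3, CEBPB, CFB, SERPINA3 and BCL3 each ended in 5 of 6 fits with a library left out. Of the fibrinogen genes, FGG lost its call in 4 of these fits, FGB in 3 and FGA in none.

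As background, these cytokines are made at low levels by resting cells and at high levels after infection, injury or stress. IL1A and IL1B act on the receptor IL1R1 with its partner IL1RAP and switch on NF-kB. IL6, IL11 and LIF each bind a receptor of their own and then share the signal transducer gp130, encoded by IL6ST, which activates JAK kinases and STAT3; in liver cells this drives the acute-phase proteins. CSF2 and CSF3 encode the growth factors GM-CSF and G-CSF for myeloid cells, and IL32 is a cytokine without a close relative among the others.

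The labels were first checked. MAD2L1 measured 4.47, 0.795 and 2.40 TPM in siMAD2L1 replicates 1, 2 and 3 and 14.5, 13.7 and 13.9 TPM in siControl. The treatment field names MAD2L2 and MAD2L3 for siMAD2L1 replicates 2 and 3, while all titles name MAD2L1. MAD2L2 measured 123, 154 and 138 TPM in siMAD2L1 replicates 1, 2 and 3 and 150, 146 and 138 TPM in siControl. Its means were 138 ± 15.3 TPM in siMAD2L1 and 145 ± 6.16 TPM in siControl (SD, n = 3 each). The liver genes APOB and TTR were listed at 0 in all 6 libraries and ALB stayed at or below 0.451 TPM, while VIM, a mesenchymal filament gene, averaged 10850 TPM in siMAD2L1 and 9494 TPM in siControl (SD 306 and 443). Of the other markers of liver and epithelium, AFP, APOA1 and KRT19 averaged under 2 TPM in both groups. The epithelial keratin genes, named after their values were seen, fell, KRT18 to 133 ± 9.14 TPM in siMAD2L1, against 194 ± 5.73 TPM in siControl (log2 fold change -0.55, limma adjusted p = 0.00661), and KRT8 to 163 ± 7.74 TPM in siMAD2L1, against 221.5 ± 6.13 TPM in siControl (-0.44, adjusted p = 0.0101, and 0.0638 with siControl replicate 1 left out; SD, n = 3 each). The part of this keratin difference in the values below was not tested. Of 10 leukocyte markers 6 were listed at 0 in every library, and the pan-leukocyte gene PTPRC did not exceed 0.06 TPM. The summed leukocyte markers, mostly CD14, were 3.87 to 5.47 TPM in siMAD2L1 and 6.76 to 12.9 TPM in siControl. Transcripts of the mitochondrial genome took 9.21% to 10.9% of the TPM in siMAD2L1 and 15.2% to 15.4% in siControl, and TPM values are shares of a fixed total. The part of this shift in the values below was not tested. The median log2 fold change of the cytokine genes was 0.80, and 0.76 with the mitochondrial and 20 highest genes taken out together. That step does not isolate the mitochondrial share. In bulk RNA, fewer cells making a transcript and less of it per cell cannot be told apart.

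**Figure D1:**
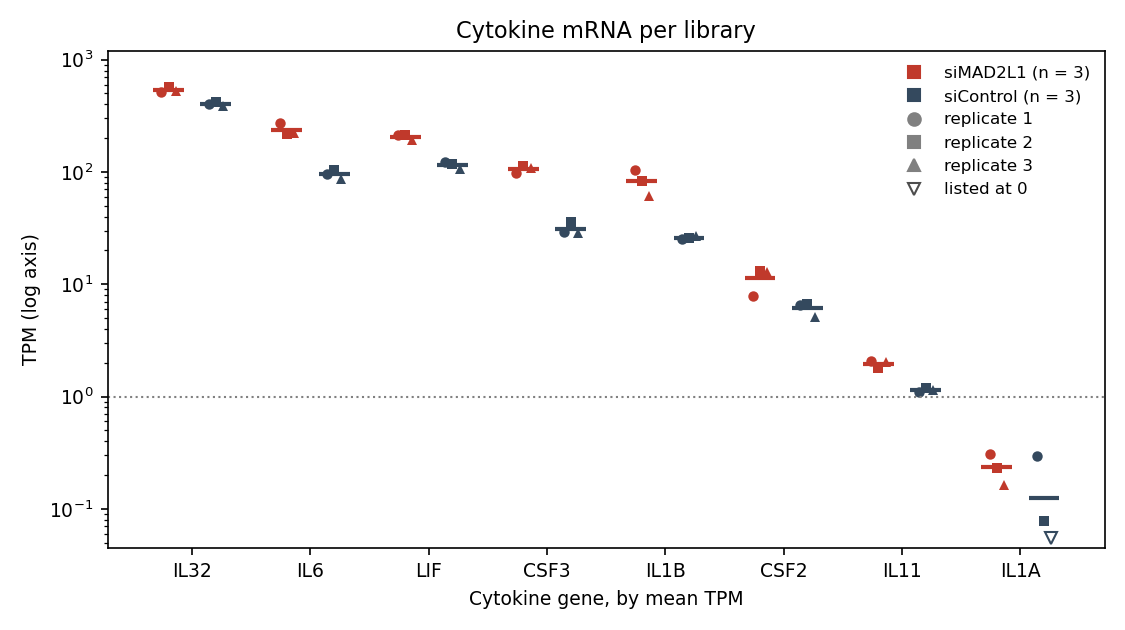
TPM of the 8 cytokine genes on a log axis, 1 point per library and a horizontal line at each group mean, siMAD2L1 in red and siControl in dark blue (n = 3 each); the dotted line marks 1 TPM, and the open triangle a library listed at 0. All genes but IL1A have their siMAD2L1 points above their siControl points, from IL32 at the top down to IL11.

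IL1B encodes interleukin-1 beta, which is made as an inactive precursor and is cut by caspase-1. On GRCh38 the gene runs from 112829751 to 112836903 of chromosome 2 (minus strand). Its level was 104, 83.6 and 61.3 TPM in siMAD2L1 replicates 1, 2 and 3 and 25.3, 25.6 and 26.7 TPM in siControl. The siControl libraries lay close together, whereas replicate 1 of siMAD2L1, which kept the most MAD2L1 mRNA, was the highest and replicate 3 the lowest. The log2 fold change, here a difference of group means of log2(TPM + 1), was 1.61 (SE 0.17). IL1A, the neighbouring gene for interleukin-1 alpha (112773915 to 112784590, minus strand), was listed at 0.310, 0.233 and 0.164 TPM in siMAD2L1 and at 0.297, 0.078 and 0 TPM in siControl. These values overlapped, and at such levels no fold is given. It failed the filter of a mean of at least 1 TPM, which the other 7 genes passed.

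IL6, the main inducer of the hepatic acute phase, lies on the plus strand of chromosome 7 from 22725884 to 22732002. It measured 273, 216 and 222 TPM in siMAD2L1 and 96.7, 105 and 86.9 TPM in siControl, with a log2 fold change of 1.29 (SE 0.112). The lowest siMAD2L1 library stood clearly above the highest siControl library, and replicate 1 was again the highest. STEAP1B on the opposite strand overlaps IL6 and measured 4.10 to 5.21 TPM in siMAD2L1 and 4.50 to 5.45 TPM in siControl; without a stated strand setting, reads of the overlap cannot be told apart. LIF, leukemia inhibitory factor (minus strand of chromosome 22, 30240447 to 30246851), measured 211, 214 and 191.5 TPM in siMAD2L1 and 122, 118 and 106 TPM in siControl (log2 fold change 0.83, SE 0.0851). Its groups were each narrow and did not overlap. The antisense genes LIF-AS1 and AC004264.1 overlap it, at no more than 4.40 TPM in any library. IL11, a cytokine linked to fibrosis (minus strand of chromosome 19, 55364389 to 55370463), was far lower, with 2.08, 1.79 and 2.02 TPM in siMAD2L1 and 1.09, 1.20 and 1.135 TPM in siControl. Its groups did not overlap either, but at this level the log2 fold change depends on the pseudocount and was 0.47 with 1 added to each TPM, 0.58 with 0.5 and 0.73 with 0.1.

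CSF3, which drives neutrophil production (plus strand of chromosome 17, 40015361 to 40017813), measured 98.2, 113 and 108 TPM in siMAD2L1 and 29.5, 35.8 and 28.8 TPM in siControl. The siMAD2L1 libraries were all near 100 TPM, and its log2 fold change of 1.74 (SE 0.109) was the largest of the 8 genes and the 26th highest of 14790 tested genes. CSF2, which drives granulocytes and macrophages (plus strand of chromosome 5, 132073790 to 132076170), measured 7.825, 13.2 and 12.9 TPM in siMAD2L1 and 6.54, 6.74 and 5.09 TPM in siControl. Replicates 2 and 3 of siMAD2L1 lay well above the controls, but replicate 1 exceeded the highest siControl library by little. The log2 fold change was 0.76 (SE 0.214), 0.99 without siMAD2L1 replicate 1 and 0.32 in siMAD2L1 replicate 1 alone. IL32 (plus strand of chromosome 16, 3065297 to 3082192) measured 519, 572 and 529 TPM in siMAD2L1 and 402, 417 and 386 TPM in siControl. Its groups were separate, with a log2 fold change of 0.43 (SE 0.0693).

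**Figure D2:**
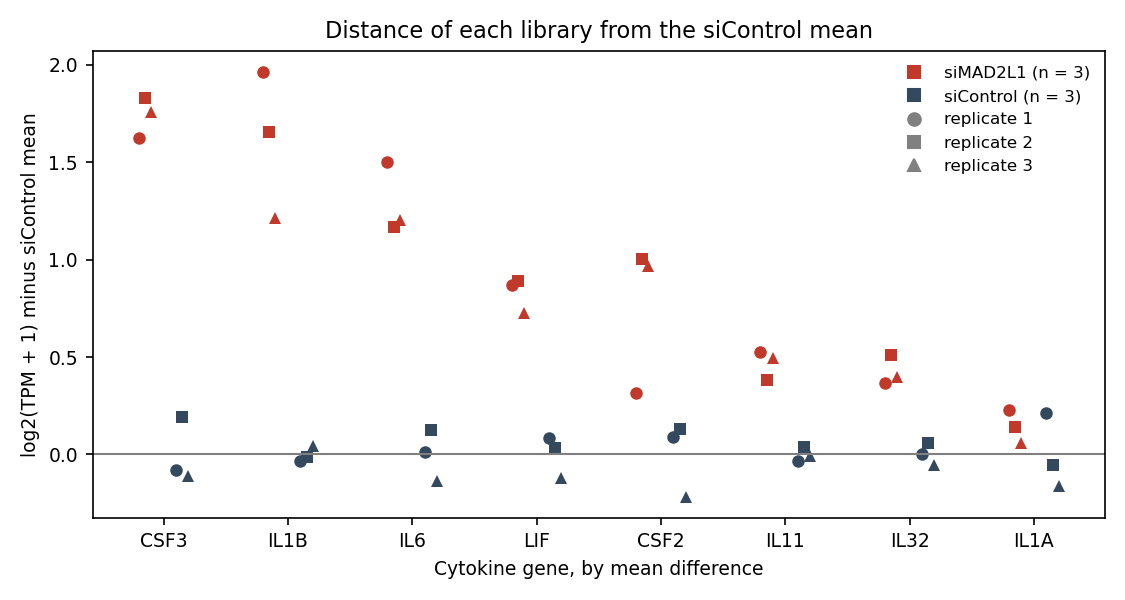
Difference of each library from the siControl mean on the log2(TPM + 1) scale for the 8 cytokine genes, ordered by mean difference, with the replicate shown by the marker shape (siMAD2L1 red, siControl dark blue, n = 3 each). Replicate 1 is the highest siMAD2L1 library for IL1B (1.96), IL6 (1.50), IL11 (0.52) and IL1A (0.23). It is the lowest siMAD2L1 library for CSF2 (0.32), CSF3 (1.62) and IL32 (0.37), and the middle one for LIF (0.87).

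The siMAD2L1 libraries differed in which of them stood farthest from the controls. For IL1B the distance above the siControl mean was 1.96, 1.66 and 1.21 in replicates 1, 2 and 3 on the log2(TPM + 1) scale, and for CSF2 it was 0.32, 1.00 and 0.97. The ratio of IL1B to CSF2, each in TPM, was 13.3, 6.33 and 4.76 in siMAD2L1 replicates 1, 2 and 3 and between 3.80 and 5.24 in siControl. CSF3 and LIF varied little between the siMAD2L1 libraries.

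The median log2 fold change of all 8 was 0.80, and that of the 7 that passed the filter 0.83, beside -0.08 for all tested genes. The 8 were picked on this contrast, so nothing is read from this gap.

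By level, the order in siMAD2L1 was IL32, IL6, LIF, CSF3, IL1B, CSF2, IL11 and IL1A, and in siControl IL32, LIF, IL6, CSF3, IL1B, CSF2, IL11 and IL1A. In siMAD2L1, the ranges of CSF3 and IL1B overlapped, and IL6 exceeded LIF by a narrow margin between their closest libraries. In siControl no neighbours overlapped, although LIF and IL6 came within 2 TPM. The ratio of IL6 to LIF was 1.29, 1.01 and 1.161 in siMAD2L1 and 0.790, 0.885 and 0.819 in siControl. The 8 transcripts summed to 1185 ± 50.5 TPM in siMAD2L1 and 678 ± 34.8 TPM in siControl (SD, n = 3 each). Of that sum, IL32 made up 45.6% ± 2.49 in siMAD2L1 and 59.3% ± 0.823 in siControl, CSF3 9.01% ± 0.809 and 4.62% ± 0.379, and LIF 17.3% ± 0.329 and 17.0% ± 0.747 (SD, n = 3 each).

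Among genes outside the group, those with the profile closest to its mean over the 6 libraries were TM4SF19, BMPER, IER2, NRIP3 and LAMB3. Likeness was the root-mean-square difference between centred log2(TPM + 1) profiles, which was 0.0302 for TM4SF19, 0.0315 for BMPER and 0.0639 for LAMB3. TM4SF19 measured 70.7, 71.7 and 71.5 TPM in siMAD2L1 and 34.2, 36.2 and 32.5 TPM in siControl. IER2, an immediate early gene, measured 142, 148 and 143 TPM in siMAD2L1 and 73.2, 81.9 and 66.8 TPM in siControl. Of the 7 cytokine genes that passed the filter, from which the mean profile was made, LIF was nearest to it (0.106) and CSF3 farthest (0.370), and with 6 libraries in 2 groups, genes with a like difference between the groups score as alike.

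The promoters were read next as a description only, since the genes were picked on this contrast. RefSeq windows on GRCh38.p14, from 250 bases before to 50 after the transcription start, were at hand for 6 of the 8 genes (IL1A, IL1B, IL6, IL11, CSF2 and IL32), and LIF and CSF3 had none. The windows shown are IL6 at chr7:22726950-22727249 (plus strand), IL32 at chr16:3065153-3065452 (plus strand, the first of its 2 windows), IL1B at chr2:112836730-112837029 (minus strand), IL11 at chr19:55370414-55370713 (minus strand) and CSF2 at chr5:132073539-132073838 (plus strand). They are printed 5′ to 3′ in the direction of the gene, and capitals mark matches to the NF-kB consensus, to the AP-1 motif TGANTCA or to the STAT motif TTCNNNGAA on either strand.
IL6: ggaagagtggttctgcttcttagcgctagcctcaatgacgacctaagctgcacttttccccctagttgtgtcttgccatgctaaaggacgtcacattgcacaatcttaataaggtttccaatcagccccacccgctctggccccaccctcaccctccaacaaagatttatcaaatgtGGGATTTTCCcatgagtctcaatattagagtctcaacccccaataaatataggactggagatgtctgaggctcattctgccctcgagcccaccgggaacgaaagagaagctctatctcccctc
IL32: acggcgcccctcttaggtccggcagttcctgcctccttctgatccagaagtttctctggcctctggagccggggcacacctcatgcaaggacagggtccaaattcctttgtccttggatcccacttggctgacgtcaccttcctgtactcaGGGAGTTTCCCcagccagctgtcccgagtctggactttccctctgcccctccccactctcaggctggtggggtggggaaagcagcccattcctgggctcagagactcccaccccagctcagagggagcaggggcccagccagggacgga
IL1B: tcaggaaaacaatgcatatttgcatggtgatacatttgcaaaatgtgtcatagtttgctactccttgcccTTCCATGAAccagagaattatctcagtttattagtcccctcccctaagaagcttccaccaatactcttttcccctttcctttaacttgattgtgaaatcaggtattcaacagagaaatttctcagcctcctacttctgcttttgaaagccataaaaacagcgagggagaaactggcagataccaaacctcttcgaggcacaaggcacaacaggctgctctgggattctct
IL11: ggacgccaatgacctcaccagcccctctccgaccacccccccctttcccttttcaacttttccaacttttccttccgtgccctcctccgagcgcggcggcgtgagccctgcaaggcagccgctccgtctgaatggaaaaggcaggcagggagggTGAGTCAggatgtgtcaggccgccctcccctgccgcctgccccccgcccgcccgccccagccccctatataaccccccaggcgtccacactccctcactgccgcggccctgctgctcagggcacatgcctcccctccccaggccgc
CSF2: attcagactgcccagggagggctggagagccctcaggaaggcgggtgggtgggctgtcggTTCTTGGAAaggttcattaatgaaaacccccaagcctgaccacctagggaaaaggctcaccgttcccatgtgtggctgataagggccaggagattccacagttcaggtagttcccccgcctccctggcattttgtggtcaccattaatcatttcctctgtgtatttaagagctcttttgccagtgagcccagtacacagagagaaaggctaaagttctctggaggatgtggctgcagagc

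The capitals in IL6 are an NF-kB match from 73 to 64 bases before the start, and those in IL32 are overlapping NF-kB matches on both strands from 99 to 89 bases before it. Such a match was held by 11.3% of 35116 windows of the same length. IL11 held an AP-1 match from 96 to 90 bases before the start and IL1A held AP-1 matches, against 7.71% of all windows. The capitals in IL1B (180 to 172 bases before the start) and CSF2 (190 to 182) are STAT matches, found in 7.66% of all windows, and both also match the C/EBP motif TTNCNNNAA, found in 33.9%. The cyclic AMP element TGACGT occurred in IL6 and IL32, against 7.98% of windows. No motif was shared by more than 2 of the 6 genes in these windows, and a match or its absence in so short a window is a description of letters only.

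The 3′ UTRs were read for AU-rich pentamers, since many cytokine mRNAs are held short-lived by proteins that bind AUUUA repeats. In the longest GENCODE 29 3′ UTR of each gene, 7 of the 8 cytokine genes held at least 1 ATTTA (written as DNA) and 4 held the longer TTATTTATT, in which the pentamer lies, beside 70.5% and 8.59% of 18265 genes with a 3′ UTR of at least 100 bases. The densest stretch of 30 bases in each of the following shows the difference between CSF2, whose pentamers overlap in an unbroken run, and IL6, whose pentamers are scattered. Capitals mark the pentamers.
CSF2: ttttaaaatATTTATTTATTTATTTATTTA
IL1B: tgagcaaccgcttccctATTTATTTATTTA
IL11: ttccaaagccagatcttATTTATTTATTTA
CSF3: tcccatgtATTTAtctctATTTAatATTTA
LIF: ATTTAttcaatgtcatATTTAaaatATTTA
IL6: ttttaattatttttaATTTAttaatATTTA

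CSF2 had 8 pentamers in 318 bases, or 25.2 per kb, a density that 6 of the 18265 genes reached, CSF2 included. IL6 had 14.0 per kb, IL1B 9.84, CSF3 8.20, IL11 5.56, IL1A 4.34 and LIF 2.19 in its long 3′ UTR of 3204 bases, beside a median of 1.58 over all genes. IL32 had none in 464 bases. Of all tested genes with such a 3′ UTR, TTATTTATT was held by 11.4% of those called higher, by 5.42% of those called lower and by 9.42% of all of them, where median 3′ UTR lengths were 1331, 1023 and 1387 bases.

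**Figure D3:**
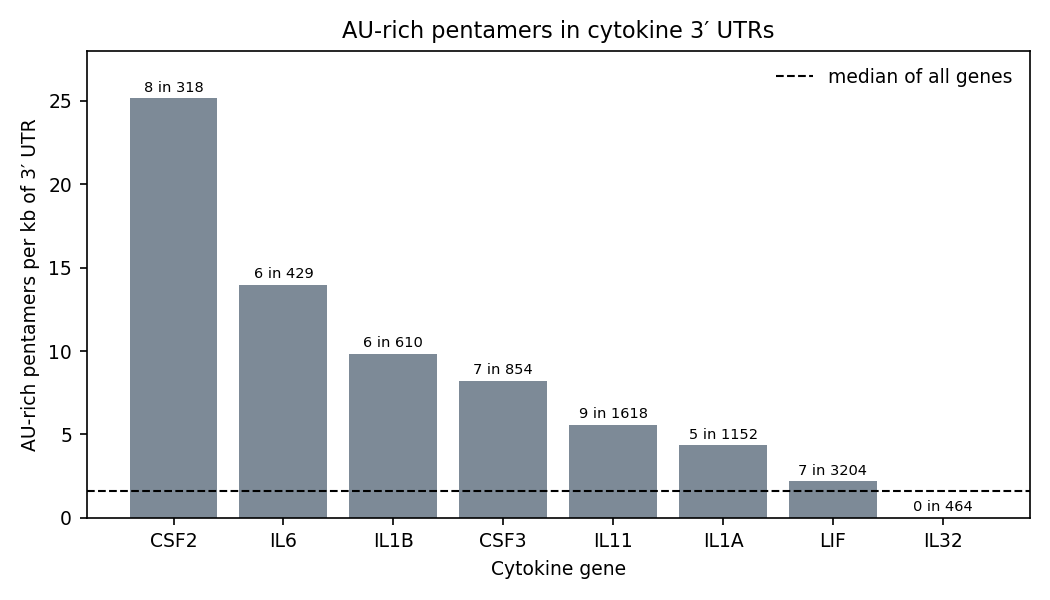
AU-rich pentamers per kb of 3′ UTR (bars) in the longest annotated 3′ UTR of each cytokine gene, with the number of pentamers and the 3′ UTR length in bases above each bar; the dashed line is the median of 18265 genes (1.58 per kb). CSF2 stands highest at 25.2 per kb and IL32 has none.

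The genes of the pathways around these cytokines were read from 6 lists with 102 genes, of which 72 passed the filter. Of these, 6 rose and 9 fell by limma at an adjusted p of 0.05, over all tested genes, and 57 did not pass; among all 14790 tested genes 3.55% rose and 6.23% fell. Without siControl replicate 1, 2 or 3 the calls were 1, 4 and 2 higher and 3, 2 and 2 lower, and without siMAD2L1 replicate 1, 2 or 3 they were 7, 4 and 3 higher and 12, 5 and 5 lower. The lists were not chosen for how their genes moved, but earlier results of these data were known.

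Of 21 further cytokines and antagonists of the same families 10 were tested, of which 2 rose and 1 fell (list median 0.01). IL36G, an IL1 family cytokine of epithelia, measured 12.7, 14.3 and 10.0 TPM in siMAD2L1 and 4.52, 3.31 and 2.29 TPM in siControl (log2 fold change 1.63, limma adjusted p = 0.00623). IL36RN, the antagonist of the IL36 receptor, averaged 12.5 TPM in siMAD2L1 and 6.99 TPM in siControl (0.76, adjusted p = 0.0161, lost in 3 of 6 fits with a library left out, with 0.0836 the highest when siControl replicate 1 was left out). CSF1, the macrophage growth factor, went the other way from CSF2 and CSF3, with 42.9, 45.5 and 47.6 TPM in siMAD2L1 and 72.4, 76.6 and 66.7 TPM in siControl (-0.65, adjusted p = 0.00612). IL36G and CSF1 passed with any library left out. Named after their values were seen, IL1RN, the natural antagonist of IL1, was at 5.84 TPM in siMAD2L1 and 6.27 TPM in siControl (-0.09, adjusted p = 0.737), and OSM, a relative of IL6 and LIF, was listed at 0 in all siMAD2L1 libraries and reached 0.081 TPM in siControl.

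IL1A, IL1B, IL36G, IL36RN and IL1RN belong to the IL1 cluster of 9 genes on chromosome 2, which spans 360 kb from 112773915 to 113134016. Along it lie IL1A, IL1B, IL37, IL36G, IL36A, IL36B, IL36RN, IL1F10 and IL1RN in this order. IL1B, IL36G, IL36B and IL36RN, though not IL1RN, were higher in every siMAD2L1 library than in any siControl library. Such a separation upward held for 11.3% of all 14790 tested genes. IL1B was picked on this contrast, and nothing is read from the count or from the order of the genes. Of IL36B the means were 15.5 TPM in siMAD2L1 and 11.4 TPM in siControl (0.41, limma adjusted p = 0.118), and IL1A, IL37, IL36A and IL1F10 averaged under 1 TPM in both groups.

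None of the 9 tested of 20 receptor genes passed (list median 0.05, limma adjusted p of at least 0.0993). At an unadjusted limma p under 0.05, 3 were higher and 2 lower. Such counts were 3 and 1 for the further cytokines, 4 and 6 for the acute-phase genes and 4 and 4 for the mRNA decay genes. The share of all tested genes under this unadjusted threshold is not given, so nothing is read from these counts in any list. For the IL1 receptor, IL1R1 was at 0.758, 0.314 and 0.269 TPM in siMAD2L1 and 0.795, 0.550 and 1.40 TPM in siControl, under the filter, whereas IL1RAP measured 18.1, 10.2 and 10.4 TPM in siMAD2L1 and 8.45, 7.53 and 7.87 TPM in siControl (0.59, adjusted p = 0.127). Its log2 fold change was 0.34 without siMAD2L1 replicate 1 and 1.09 in that replicate alone, and it passed after quantile normalization (0.69, limma adjusted p = 0.0429). For the IL6 family, the IL6 receptor IL6R measured 7.83, 9.06 and 10.3 TPM in siMAD2L1 and 7.15, 5.73 and 5.78 TPM in siControl (0.48, adjusted p = 0.0993), and passed without siMAD2L1 replicate 1 (0.57, adjusted p = 0.0442) and when libraries were weighted (0.55, adjusted p = 0.0105). IL6ST measured 48.1, 13.2 and 15.9 TPM in siMAD2L1 and 17.9, 16.85 and 14.8 TPM in siControl (0.39, limma adjusted p = 0.600). Replicate 1 of siMAD2L1 stood alone, and the log2 fold change was -0.17 without it and 1.49 in it alone. The oncostatin M receptor OSMR averaged 76.2 TPM in siMAD2L1 and 62.3 TPM in siControl (0.28, limma adjusted p = 0.180). Its log2 fold change was 0.17 without siMAD2L1 replicate 1 and 0.23 (adjusted p = 0.0384) with library weights. Over all tested genes, library weights called 1514 higher and 3346 lower, against 525 and 921 in the main fit. Without siMAD2L1 replicate 1 these counts were 716 and 1706. LIFR, which LIF binds, stayed at or below 0.679 TPM and IL11RA, which IL11 binds, averaged 5.46 TPM in siMAD2L1 and 5.19 TPM in siControl. SIGIRR, an inhibitory receptor, was at 70.5 TPM in siMAD2L1 and 67.5 TPM in siControl. For the colony-stimulating factors, CSF2RA averaged 31.0 TPM in siMAD2L1 and 31.5 TPM in siControl, but CSF2RB, the signalling chain of the CSF2 receptor, was listed at 0 in all 6 libraries and CSF3R did not exceed 0.319 TPM.

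Of 16 genes of IL1 signalling and precursor processing 13 were tested and none passed in limma (list median 0.14), while 2 were higher and 1 lower at an unadjusted p under 0.05. The kinase gene IRAK1, the most abundant, averaged 410 TPM in siMAD2L1 and 345 TPM in siControl (0.25, limma adjusted p = 0.0684). It passed without siMAD2L1 replicate 1 (0.29, adjusted p = 0.0247) and when libraries were weighted (0.30, adjusted p = 0.00311). Both settings called more genes in all than the main fit, as given above. GSDMD, which forms the pore through which IL1B leaves cells, averaged 60.6 TPM in siMAD2L1 and 69.4 TPM in siControl (-0.20, adjusted p = 0.309), with -0.10 without siMAD2L1 replicate 1 and -0.06 with library weights. Named after their values were seen, CASP1 was uneven, with 1.37, 2.77 and 2.73 TPM in siMAD2L1 and 0.485, 0.345 and 4.79 TPM in siControl, and the inflammasome sensor NLRP3 was listed at 0 in all libraries.

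Of 17 JAK-STAT genes 16 were tested, of which 2 fell and none rose in limma (list median -0.14); at an unadjusted p under 0.05, 0 were higher and 4 lower. TYK2, a JAK family kinase, measured 18.8, 20.2 and 22.3 TPM in siMAD2L1 and 29.6, 34.9 and 39.2 TPM in siControl (log2 fold change -0.72, limma adjusted p = 0.0149, and as high as 0.0698 without siControl replicate 3, lost in 2 of 6 fits with a library left out). SOCS3, which STAT3 induces and which blocks gp130 signalling, measured 16.9, 17.6 and 17.4 TPM in siMAD2L1 and 24.0, 24.05 and 25.3 TPM in siControl (-0.48, adjusted p = 0.0217). The groups of SOCS3 were tight and separate, but leaving out a library in turn kept the call in 1 of 6 fits (the highest adjusted p, 0.101, came without siControl replicate 3). STAT3 mRNA itself, named after its values were seen, averaged 77.3 TPM in siMAD2L1 and 78.5 TPM in siControl (-0.02, adjusted p = 0.890).

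Of 18 acute-phase genes and STAT3 or C/EBP targets 14 were tested, of which 2 rose and 5 fell (list median -0.21). The fibrinogen chain genes fell together. FGA measured 1.275, 0.699 and 0.826 TPM in siMAD2L1 and 3.82, 4.18 and 5.33 TPM in siControl (-1.50, limma adjusted p = 0.00691), and passed with any library left out. FGG measured 8.29, 3.80 and 3.79 TPM in siMAD2L1 and 14.6, 17.2 and 15.2 TPM in siControl (-1.48, adjusted p = 0.0142, lost in 4 of 6 fits with a library left out, with 0.0699 the highest when siControl replicate 2 was left out; -0.84 in siMAD2L1 replicate 1 alone). FGB averaged 2.77 TPM in siMAD2L1 and 7.42 TPM in siControl (-1.17, adjusted p = 0.0142, up to 0.0778 without siControl replicate 1, lost in 3 of 6). CFB, complement factor B, rose to 12.1 TPM in siMAD2L1, against 5.98 TPM in siControl (0.89, adjusted p = 0.0416, up to 0.146 without siControl replicate 3, lost in 5 of 6; 0.57 with library weights).

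The other 3 that passed, named after their values were seen, likewise each lost the call in 5 of 6 fits with a library left out. CEBPB, a transcription factor gene that IL6 and IL1 induce, averaged 449 TPM in siMAD2L1 and 321 TPM in siControl (0.47, limma adjusted p = 0.0212, up to 0.0939 without siControl replicate 3; 0.27 in siMAD2L1 replicate 1 alone). SERPINA3, the acute-phase protease inhibitor antichymotrypsin, averaged 124 TPM in siMAD2L1 and 179.5 TPM in siControl (-0.55, adjusted p = 0.0473, up to 0.155 without siControl replicate 2; -0.35 in siMAD2L1 replicate 1 alone). BCL3, an NF-kB cofactor gene, averaged 47.8 TPM in siMAD2L1 and 65.8 TPM in siControl (-0.45, adjusted p = 0.0422, as high as 0.153 when siControl replicate 1 was left out). The acute-phase gene CRP was at or near 0 in every library.

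Of 10 genes for proteins that bind and stabilise or degrade cytokine mRNAs, all tested, 2 rose and 1 fell (list median -0.05). ZFP36, or tristetraprolin, which binds the AU-rich runs printed above for CSF2 and IL1B and hastens decay, measured 36.2, 35.5 and 32.0 TPM in siMAD2L1 and 18.0, 22.5 and 19.9 TPM in siControl (0.75, limma adjusted p = 0.00818, up to 0.0509 without siControl replicate 1). Its relative ZFP36L1 averaged 241 TPM in siMAD2L1 and 174 TPM in siControl (0.46, adjusted p = 0.0172, up to 0.0860 without siControl replicate 1, lost in 3 of 6 fits with a library left out). TIA1, a translational repressor that binds AU-rich mRNA, fell to 10.1, 7.76 and 6.07 TPM in siMAD2L1, against 13.9, 17.6 and 14.1 TPM in siControl (-0.87, adjusted p = 0.0294, and up to 0.114 without siControl replicate 2, lost in 5 of 6; -0.54 in siMAD2L1 replicate 1 alone).

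**Figure D4:**
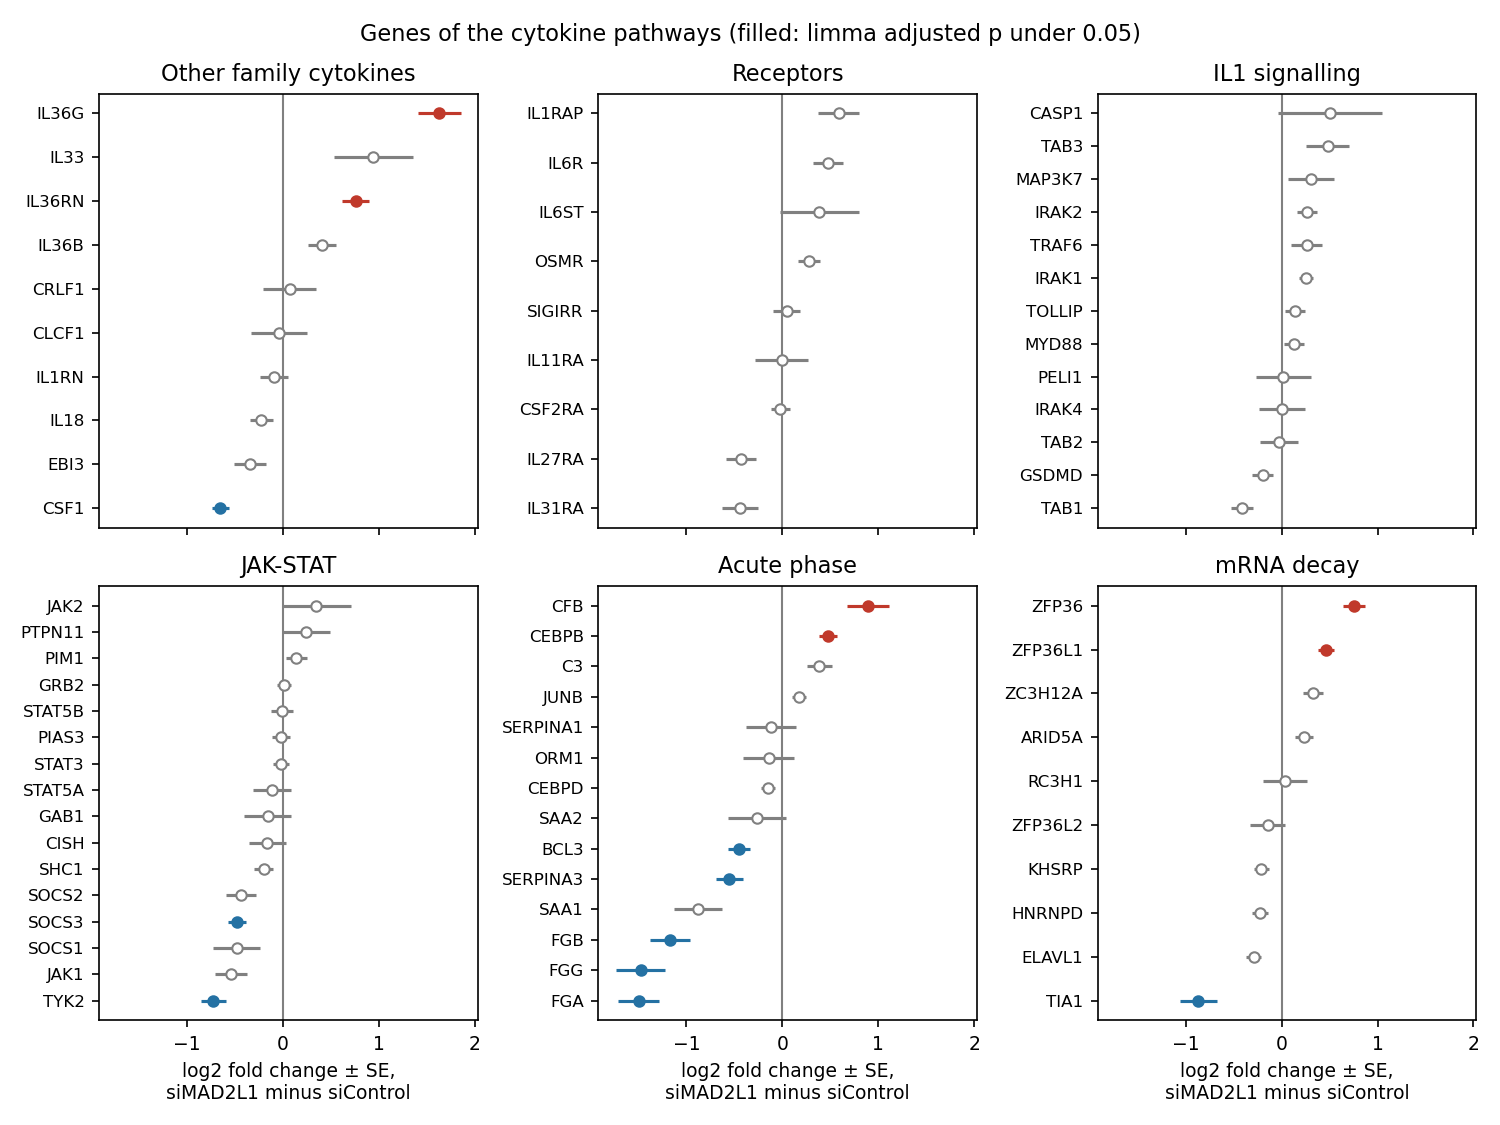
Log2 fold change (siMAD2L1 minus siControl, on log2(TPM + 1)) with its SE for the 72 tested genes of the 6 pathway lists, 1 panel per list; filled points passed a limma adjusted p of 0.05 (red higher, blue lower in siMAD2L1), open grey points did not. Receptors and IL1 signalling hold no filled point, and the fibrinogen genes lie farthest to the left among the acute-phase genes.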

How the data were processed

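RNA of 6 SNU449 libraries was measured by RNA-seq (3 siMAD2L1, 3 siControl), grouped by title. The deposited values are TPM made by the authors. The submitters' processing notes name fastp, HISAT2, DESeq2 1.16.1 and hg38; the counter, annotation and strand setting were not stated in the sources used here. TPM columns sum to a constant, so the depth is unknown and counting error cannot be given. Columns were matched to titles by siRNA and number.

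On the log2(TPM + 1) scale, the 14790 of 60589 genes averaging at least 1 TPM were fitted with limma 3.58.1 (R 4.3.3) with an intensity trend and no covariates; adjusted p-values are Benjamini-Hochberg over all tested genes. The fit was also run on simulated data with independent noise for each gene and library, and nothing is read from that run here. Log2 fold changes on this scale understate those of low genes. The cytokine genes and the lists were chosen with earlier results of these data known. Named genes were the cytokines, MAD2L1 and MAD2L2, the receptors of the cytokines, up to 4 called genes of each list by size of change (the 2 most abundant where none was called) and the 5 genes of nearest profile; others are said to be chosen after their values were seen. Promoters are from RefSeq (GRCh38.p14) and gene positions and 3′ UTRs from GENCODE 29 (GRCh38), searched in Python 3.11.15. Alternatives were pseudocounts, filters, scalings, variance models, a replicate block, each library left out, and siMAD2L1 replicate 1 alone. The last holds no spread between siMAD2L1 libraries, so only its effect sizes are given. It still counts as an alternative where lost calls are tallied.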

Additional observations from a re-analysis of the deposited data

How the results depend on the processing

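The median log2 fold change of the 8 cytokine genes, 0.80, lay between 0.70 and 0.90 over 18 alternatives. Each of the 8 stayed positive, but they were picked on this contrast, and 7 did not overlap between the groups. Nothing is therefore read from their sign. The nearly silent IL1A, whose groups overlapped, ran from 0.062 to 0.249 with a library left out. Correlations of same-numbered deviations were 0.019, 0.009 and 0.063, and those of unlike numbers lay between -0.052 and 0.034. With 3 libraries per group, they cannot decide whether the replicate numbers pair the libraries. With a replicate block 336 genes were called higher and 532 lower, against 525 and 921 without it. Without a filter these were 267 and 460, with library weights 1514 and 3346, without a trend 297 were higher, and in siMAD2L1 replicate 1 alone 555 were lower. Without siControl replicates 1, 2 and 3 they were 138, 246 and 156 higher and 188, 268 and 227 lower, and without siMAD2L1 replicates 1, 2 and 3 they were 716, 300 and 237 higher and 1706, 493 and 408 lower. Pathway genes called higher, 6, numbered 3 without a trend, 14 with library weights and 1 to 7 with a library left out. Those called lower, 9, numbered 4 without a filter, 17 with library weights and 2 to 12 with a library left out. The cause of these changes in the counts was not tested.

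Some uncalled genes changed sign. IL11RA (-0.01) was 0.032 with upper-quartile scaling, 0.124 after quantile normalization, 0.625 for siMAD2L1 replicate 1 on its own, and -0.323 to 0.199 with a library left out. CSF2RA (-0.02) was 0.030, 0.029 and 0.010 with upper-quartile scaling, quantile normalization and library weights, and -0.060 to 0.031 with a library left out. STAT3 (-0.02) was 0.026, 0.027 and 0.025 with upper-quartile scaling, library weights and siMAD2L1 replicate 1 alone, and -0.056 to 0.034 with a library left out. SIGIRR (0.05) was -0.001 without mitochondrial and the 20 highest genes, -0.007 with library weights and -0.117 in siMAD2L1 replicate 1 alone, and -0.111 to 0.129 with a library left out. IL6ST was -0.031 with library weights and -0.169 to 0.724 with a library left out. Outside the fits with a library left out, the calls of IL36RN, TYK2, SOCS3, FGG, FGB, CFB, TIA1, ZFP36L1, CEBPB, BCL3, SERPINA3 and KRT8 ended in 1 to 4 of 12 alternatives, and those of IL36G, CSF1, ZFP36, KRT18 and FGA (11 alternatives) in none. With the block, adjusted p was 0.0625 for SOCS3, 0.0519 for IL36RN, 0.0510 for TIA1 and 0.0737 for BCL3. FGA had no value with the filter at 5 TPM.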
